A study of Mus musculus with 40 samples.

Results

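The endothelin system is described here by 6 genes of the 55487 in the count table: the ligands Edn1 and Edn3, the converting enzymes Ece1 and Ece2, and the receptors Ednra and Ednrb. Ednrb was chosen by its strong astrocyte excess over motor neurons in these same libraries, and the other genes as its family. Levels by cell type are therefore given as a description, with no test of the members between the cell types. The members were tested for the effect of the stimuli alone, and other genes of the pathway also between the cell types.

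Endothelins are short peptides cut from larger precursors, first by furin-like convertases and then by endothelin-converting enzymes, and they act on a pair of G protein-coupled receptors. The A receptor prefers endothelin-1 and is best known from vascular smooth muscle, while the B receptor binds all endothelins and is made by astrocytes, endothelium and migrating neural crest cells. Endothelin-1 acting on the astrocyte B receptor is known for its part in reactive gliosis, and loss of Edn3 or Ednrb leaves the distal gut without nerve cells.

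Both cell types came from mouse embryonic stem (ES) cells derived from B6.Cg-Tg(Hlxb9-GFP)1Tmj/J mice, which carry eGFP under the promoter of the motor neuron gene Hb9, and were patterned with retinoic acid and a smoothened agonist. ES-astrocytes were grown with fibroblast and epidermal growth factors, matured with forskolin and left as control or stimulated for 24 hours with IL-1α and TNF-α (the study's positive control), C1Q and C5, IL-1β and IL-6, or TGF-β2. ES-motor neurons sorted for eGFP were plated on top of them, without prior removal of the astrocyte medium, and co-cultured. The cell types were then sorted apart again, and polyadenylated RNA of about 200 cells per sample was sequenced. With 5 treatments, 2 cell types and 4 biological replicates (A to D) in each of the 10 groups, there were 40 libraries.

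Depth differed between the cell types. The ES-astrocyte libraries held 1510823 to 16054290 counts (median 4670241.5), and the ES-motor neuron libraries 6557 to 19717324 (median 1213482). Of the motor neuron libraries, 9 held less than 20% of the median total of all 40 (called shallow below), among them all 4 of the IL-1α and TNF-α group with 112775 to 445874 counts. Levels are given as CPM, a gene's share of its library's counts scaled to a common total with trimmed mean of M-values (TMM) factors, and as CPM per kilobase of exon where genes are compared with each other. A level of 3 counts corresponded to 0.230 to 2.04 CPM in the astrocyte libraries and 0.153 to 203 CPM in the motor neuron libraries, and such limits cover counting error only.

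Markers fixed as lists were compared with the labels. The 12 astrocyte markers summed to 2293 ± 710 CPM (SD, n = 20) in ES-astrocytes, led by Fabp7 with 1430 CPM, and to 777 ± 261 CPM in ES-motor neurons, led by Vim with 467 CPM. In the ES-astrocytes 9 of the 12 were counted, while the defining astrocyte markers Aqp4, Gfap and Aldh1l1 were at 0 in all 20 libraries, and Sox9 was higher in ES-motor neurons (266 against 79.0 CPM). The 8 motor neuron markers summed to 1439 ± 1068 CPM in ES-motor neurons, led by Mnx1, and to 49.9 ± 31.3 CPM in ES-astrocytes, and the 10 general neuron markers to 15763 and 4306 CPM, led in both by Gap43. The ES-astrocytes thus carried neuronal transcripts in each library and lacked counts of 3 defining astrocyte markers. Unlike Sox9, Slc1a2 (128 against 18.2 CPM) and Gja1 (62.3 against 0.163 CPM) were higher in ES-astrocytes. So were Slc1a3 (35.5 against 1.18 CPM) and Fgfr3 (11.4 against 0.477 CPM).

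Other cell types known to use endothelins were looked for in the same way. Endothelial markers, 5 of 10 counted, summed to 4.22 CPM in ES-astrocytes, led by Egfl7, with Cdh5, Tek, Flt1, Tie1 and Emcn at 0. Smooth muscle and pericyte markers, 7 of 10 counted, summed to 339 ± 303 CPM, led by Acta2 with 266 CPM, with Rgs5, Abcc9 and Kcnj8 at 0, against 4.12 CPM in ES-motor neurons. Of those counted, Myh11 and Pdgfrb were found in 2 of 20 ES-astrocyte libraries each, and Des and Cspg4 in 3 each. Mesenchymal markers, 8 of 9 counted, summed to 297 ± 240 CPM, led by Dcn, against 2.62 CPM, and the 8 markers of progenitors and cycling cells to 823 ± 186 CPM, led by Top2a, against 17.7 CPM. Of single genes known from neural crest, Sox10, Tyrp1 and Mlana were at 0 in all ES-astrocyte libraries. Microglial markers (3.45 CPM, led by Csf1r) and pluripotency markers (0.296 CPM, from Nanog alone) were low in the ES-astrocytes, and also in the ES-motor neurons (4.20 and 0.219 CPM). The part of the smooth muscle, mesenchymal and cycling markers in the results below was not tested.

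A single ES-astrocyte library stood apart, the control of replicate A. Its smooth muscle and pericyte markers, 3 of 10 counted, summed to 1419 CPM, led by Acta2, above all 19 other ES-astrocyte libraries (60.8 to 650 CPM). Its neuronal markers summed to 2589 CPM, below all 19 others, and its astrocyte markers to 1219 CPM, below 18 of 19. Its motor neuron markers summed to 109 CPM, led by Lhx3, above all 19 others (15.6 to 108 CPM). The main Ednrb and Ednra results are also given without it, and the other values include it unless stated.

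The ligands were low or uncounted. Edn1 (ENSMUSG00000021367, GRCm38 chr13:42301476-42307990, plus strand), the precursor of endothelin-1, was counted in 10 of 20 ES-astrocyte libraries, with 957 counts in all. Its levels in replicates A to D were 1.18, 31.0, 25.9 and 0 CPM in control ES-astrocytes. After IL-1α and TNF-α they were 0, 0, 1.38 and 20.6 CPM, after IL-1β and IL-6 0, 7.27, 25.3 and 0 CPM, and after TGF-β2 2.05, 1.85, 0 and 22.9 CPM. All 4 libraries of C1Q and C5 were at 0. Edn1 was thus either at most 2.05 CPM or at least 20.6 CPM in 19 of the 20 libraries, with 7.27 CPM the sole level between, and each of the 4 other groups held libraries of both kinds.

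No Edn1 count fell in any of the 20 ES-motor neuron libraries. Summed over libraries, Edn1 counts were at least 176.6-fold higher in ES-astrocytes, taken against 3 counts over the motor neuron group (0.0464 CPM). This limit covers counting error only and not the spread between libraries. Of the 957 counts, 343 came from control replicate B and 325 from IL-1β and IL-6 replicate C. The mean in ES-astrocytes was 6.98 ± 11 CPM (SD, n = 20), and 12 of the 20 motor neuron libraries were deep enough for 3 counts to lie below that mean. Edn3 (ENSMUSG00000027524, chr2:174760619-174784042, plus strand), the ligand that acts with Ednrb in neural crest, had no count in any of the 40 libraries, nor had Edn2, the third endothelin gene. A count of 0 allows a level of up to 0.0257 CPM over the astrocyte libraries and 0.0464 CPM over the motor neuron libraries.

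Of the converting enzymes, Ece1 was the one measured well. Ece1 (ENSMUSG00000057530, chr4:137862237-137965229, plus strand) encodes the membrane protease that makes active endothelin-1, and it was counted in 19 of 20 ES-astrocyte libraries. In replicates A to D it stood at 3.86, 14.6, 20.8 and 16.1 CPM in the control group, at 26.1, 38.4, 5.06 and 0 CPM after IL-1α and TNF-α, and at 24.3, 30.9, 27.9 and 11.7 CPM after C1Q and C5. It stood at 0.909, 52.9, 25.6 and 20.6 CPM after IL-1β and IL-6, and at 53.3, 45.1, 20.6 and 23.9 CPM after TGF-β2. The TGF-β2 group held no library below 20 CPM, and it overlapped the control group by the control of replicate C alone.

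The order of the Ece1 group means in ES-astrocytes was TGF-β2 (35.7 ± 16.0 CPM, SD, n = 4), IL-1β and IL-6 (25.0 ± 21.4), C1Q and C5 (23.7 ± 8.42), IL-1α and TNF-α (17.4 ± 18.0) and control (13.8 ± 7.17). Neighbours in that order overlapped, and on the log2 scale the mean after IL-1α and TNF-α lay below that of the control. Without replicate B of the group the mean fell to 15.7 CPM after IL-1β and IL-6. After IL-1α and TNF-α it then fell to 10.4 CPM, below the control mean. ES-motor neurons had Ece1 in 10 of 20 libraries, at 5.11 ± 8.21 CPM (SD, n = 20) against 23.1 ± 15.6 CPM in ES-astrocytes. By group, A to D, their levels were 10.9, 11.5, 3.85 and 0 CPM in the control, 0, 2.16, 6.71 and 8.67 CPM after IL-1α and TNF-α, and 0, 0, 0 and 1.41 CPM after C1Q and C5. After IL-1β and IL-6 they were 6.48, 0, 32.1 and 0 CPM, and after TGF-β2 0, 18.4, 0 and 0 CPM. The cell types overlapped for Ece1, and in 17 of the 20 motor neuron libraries 3 counts would have lain below the astrocyte mean.

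Ece2 (ENSMUSG00000022842, chr16:20629828-20646485, plus strand), the related converting enzyme of neurons, was nearly uncounted in ES-astrocytes, with 1 count in each of 2 libraries. ES-motor neurons gave 103 counts in 5 of 20 libraries, at 3.62 and 3.79 CPM in the controls of replicates A and B and at 0.706 to 2.16 CPM in the other 3. The gene shares 57.5% of its exon bases with the read-through gene Gm49333 on the same strand, which had 353 counts in ES-motor neurons and 571 in ES-astrocytes, so these counts may not be all those of Ece2.

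Ednrb (ENSMUSG00000022122, chr14:103814625-103844402, minus strand), the B receptor, was counted in all 20 ES-astrocyte libraries. Its levels in replicates A to D were 34.3, 1270, 631 and 803 CPM in the control group. After IL-1α and TNF-α they were 677, 151, 355 and 347 CPM, and after C1Q and C5 820, 180, 576 and 130 CPM. The control group spanned the whole range of the gene, with both its lowest and its highest library, and its other 3 libraries lay at or above 631 CPM.

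After IL-1β and IL-6 the Ednrb levels were 662, 273, 520 and 454 CPM, and after TGF-β2 147, 217, 525 and 325 CPM. Ordered by mean, Ednrb in ES-astrocytes was highest in the control (684 ± 511 CPM, SD, n = 4), followed by IL-1β and IL-6 (477 ± 162), C1Q and C5 (427 ± 329), IL-1α and TNF-α (382 ± 218) and TGF-β2 (304 ± 165). Neighbours among these 5 overlapped, and on the log2 scale of the plot of levels the mean after IL-1β and IL-6 lay above that of the control. That log2 order rests on the control of replicate A. Without this library the control mean was 901 CPM, and the control group was the highest on both scales. The next group in the order, ES-motor neurons with C1Q and C5 at 3.79 ± 5.32 CPM, did not overlap the TGF-β2 astrocytes. Over all 20 ES-astrocyte libraries the mean was 455 ± 302 CPM, and without the control of replicate A it was 477 ± 294 CPM (n = 19, lowest 130 CPM).

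In ES-motor neurons Ednrb was at 0 in 15 of 20 libraries, and the other 5 held 26 counts in all against 54145 in the ES-astrocytes. The counted libraries were those of C1Q and C5 replicates C and D with 11 counts each (11.3 and 3.88 CPM), TGF-β2 replicate D with 2 counts (1.72 CPM), and the controls of replicates B and C with 1 count each. The highest of these levels lay below the lowest ES-astrocyte level of 34.3 CPM, and in 19 of the 20 motor neuron libraries 3 counts would have lain below that level. Fabp7, the most abundant astrocyte marker, was counted in 18 of the 20 motor neuron libraries at 24.5 ± 16.6 CPM, and its part in the Ednrb counts there was not tested. In these sorted pools, fewer cells of a type and less RNA per cell cannot be told apart.

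Ednra (ENSMUSG00000031616, chr8:77663031-77724464, minus strand), the A receptor, was counted in 3 ES-astrocyte libraries and in no ES-motor neuron library. Of its 135 counts, 133 came from the control of replicate A (14.3 CPM), and the other 2 from IL-1α and TNF-α replicate D and TGF-β2 replicate B. The library with Ednra was the one with the least Ednrb of the 20 ES-astrocyte libraries. It also had the highest sum of smooth muscle and pericyte markers, with 3 of the 10 counted and Acta2 leading. The part of those markers in the Ednra count was not tested. Without that library Ednra had 1 count in each of 2 libraries.

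**Figure D1:**
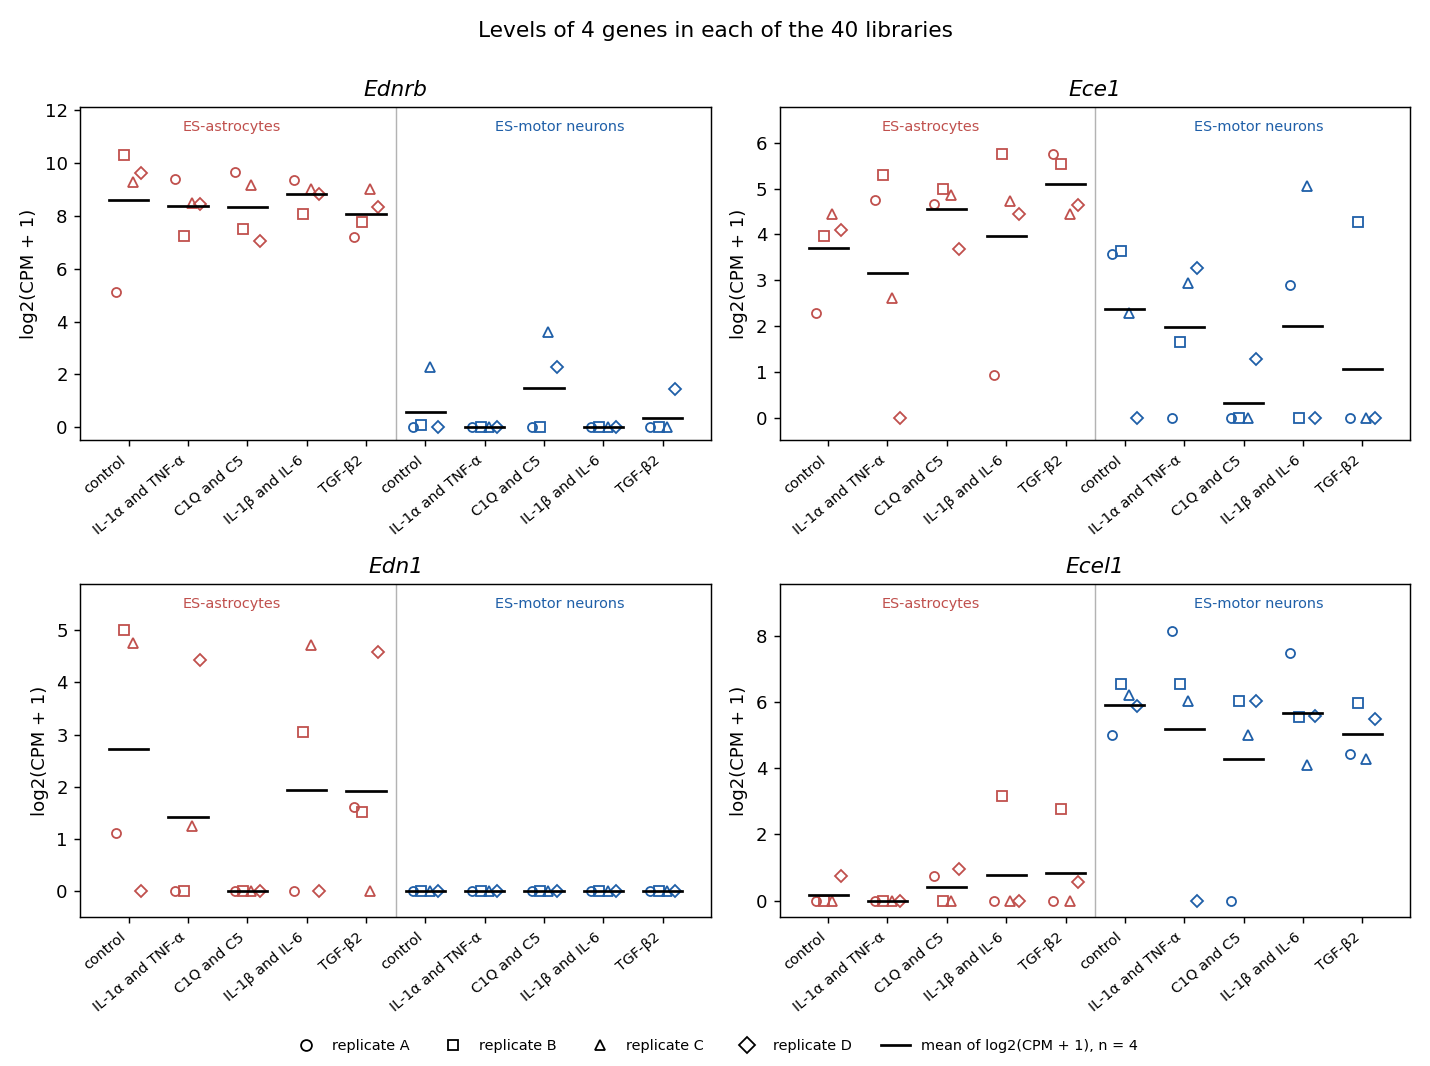
Levels of Ednrb, Ece1, Edn1 and the Ece1 relative Ecel1 as log2(CPM + 1) in 40 libraries by cell type and treatment, with a symbol per replicate and a bar at the group mean of log2(CPM + 1) (n = 4). Ednrb lies at or above 34.3 CPM in every ES-astrocyte library and at or below 11.3 CPM in every ES-motor neuron library, while Ecel1 has the opposite excess.

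On the scale per length, which allows genes to be compared, Ednrb stood at 107 ± 70.9 CPM per kilobase in ES-astrocytes. Ece1 stood at 4.36, Edn1 at 3.26 and Ednra at 0.136 CPM per kilobase. Ednrb ranked 619 of 26043 genes with counts in ES-astrocytes on this scale, Ece1 6260 and Edn1 7320. The ratio of Ednrb to Ece1 in CPM per kilobase ran from 3.42 to 905 with a median of 25.6 over the 19 ES-astrocyte libraries with Ece1, and Ednrb was the higher in 20 of 20. In ES-motor neurons Ece1, at 0.964 CPM per kilobase, ranked 10375 of 23062 genes and Ednrb, at 0.244, ranked 14415. The medians over the 20 ES-astrocyte libraries on this scale were 94.8 for Ednrb, 4.22 for Ece1 and 0.276 CPM per kilobase for Edn1, which was at 0 in 10 of them.

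The study asked whether inflammatory mediators change ES-astrocytes, which the comparison of each stimulus with the control addresses for the endothelin genes. Ednrb was below the control mean in 4 of 4 libraries after IL-1α and TNF-α, 3 of 4 after C1Q and C5, 4 of 4 after IL-1β and IL-6 and 4 of 4 after TGF-β2. Without replicate A the control mean was 901 CPM, and every stimulated ES-astrocyte library lay below it. Every stimulated group overlapped the control group, and the TGF-β2 group (highest 525 CPM) did so through the low control of replicate A alone. The log2 fold changes against control, with standard errors and edgeR adjusted p, were -0.80 ± 0.79 for IL-1α and TNF-α, -0.65 ± 0.84 for C1Q and C5, -0.50 ± 0.75 for IL-1β and IL-6 and -1.13 ± 0.79 for TGF-β2, each with an adjusted p of 1.00. The 4 comparisons share the control libraries.

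Single control libraries moved the Ednrb changes either way. Without the control of replicate B, the library with the most Ednrb, the log2 fold changes were -0.33, -0.18, -0.03 and -0.65 in the same order of stimuli. Without the control of replicate A they were -1.19 ± 0.44 for IL-1α and TNF-α (edgeR p 0.0224, adjusted 1.00), -1.05 ± 0.58 for C1Q and C5 (p 0.0957, adjusted 0.999) and -0.90 ± 0.35 for IL-1β and IL-6 (p 0.0275, adjusted 1.00). For TGF-β2 the change was then -1.53 ± 0.43 (edgeR p 0.00544, adjusted 0.631). None of these passed the adjusted p of at most 0.05, and the adjusted p for TGF-β2 lay between 0.631 and 1 over all alternatives tried.

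Marker sums also differed between these libraries, and were set beside Ednrb after the data were seen. The 12 astrocyte markers summed to 1219, 3141, 3008 and 3132 CPM in control replicates A to D, and to 1717, 1976, 1972 and 1729 CPM after TGF-β2. They summed to 2387, 1166, 2516 and 1993 CPM after IL-1α and TNF-α, to 3445, 1667, 2931 and 1567 CPM after C1Q and C5, and to 2858, 1657, 3144 and 2631 CPM after IL-1β and IL-6. In each of the 5 groups the library with the least Ednrb also had the lowest astrocyte marker sum, and the 4 TGF-β2 sums lay below 3 of the 4 control sums. Mesenchymal markers summed to 189, 1132, 264 and 293 CPM in the controls and to 474, 498, 439 and 426 CPM after TGF-β2, and smooth muscle markers to 1419, 98.4, 489 and 112 CPM and to 385, 650, 555 and 243 CPM. The part of these markers in the values of Ednrb and Ece1 was not tested.

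Ece1 lay above the control mean in 2 of 4 libraries after IL-1α and TNF-α, 3 of 4 after C1Q and C5, 3 of 4 after IL-1β and IL-6 and 4 of 4 after TGF-β2. Its log2 fold changes were 0.37 ± 1.34, 0.81 ± 0.93, 0.89 ± 1.15 and 1.42 ± 0.77 in that order, each with an edgeR adjusted p of 1.00. DESeq2 gave 1.41 for TGF-β2 with an adjusted p of 0.671 and a p of 0.0240, and the adjusted p lay between 0.671 and 1 over all alternatives. The sign for IL-1α and TNF-α turned to -0.39 without replicate B of that group, the library with the most Ece1 in it.

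Edn1 passed the filter on low counts in only 2 of these 4 comparisons. Its log2 fold change was -0.82 ± 2.11 for IL-1β and IL-6 and -1.08 ± 1.91 for TGF-β2, with an edgeR adjusted p of 1.00 in both. For C1Q and C5, where it was at 0 in 4 of 4 libraries against 3 of 4 counted in the control, the exact two-sided permutation test of mean CPM gave p = 0.143, the smallest that 5 libraries at 0 of 8 allow, so it could not have passed. DESeq2 gave this comparison a p of 0.000826 and an adjusted p of 0.136, edgeR with no filter on low counts 0.00344 and 0.425, and edgeR on all 20 ES-astrocyte libraries 0.0113 and 1.00. For IL-1α and TNF-α the exact permutation p was 0.343.

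**Figure D2:**
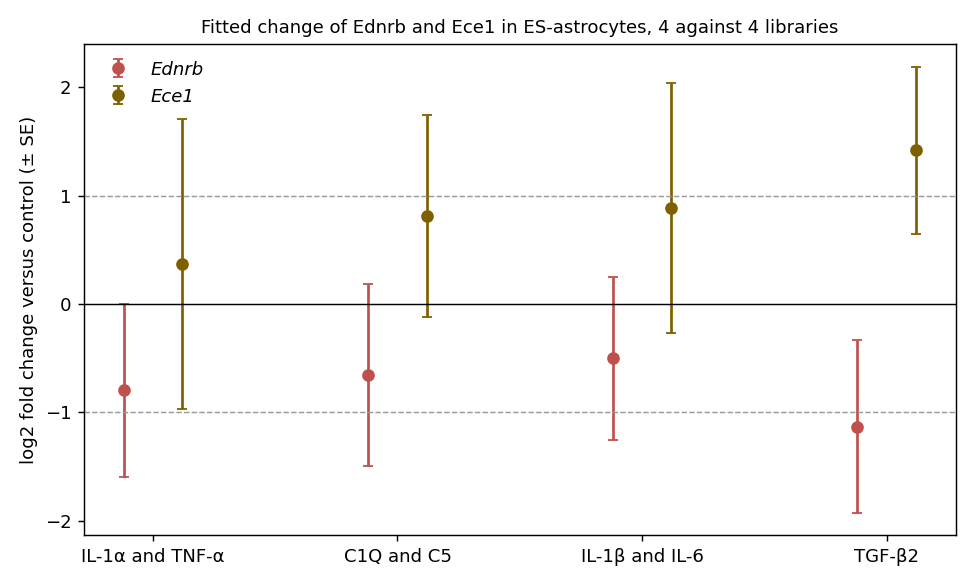
Fitted log2 fold change of Ednrb and Ece1 in ES-astrocytes for 4 stimuli against control (4 libraries per group), with bars for 1 standard error, derived from the test statistic, and dashed lines at the threshold of 1 in either direction. The Ednrb values lie between -0.50 and -1.13 and the Ece1 values between 0.37 and 1.42, and none passed the test.

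A gene was called where its adjusted p was 0.05 or less and its log2 fold change was above 1 in either direction. By this rule edgeR called 0 of the 2, 2, 3 and 3 members tested in the ES-astrocyte comparisons, in the order IL-1α and TNF-α, C1Q and C5, IL-1β and IL-6 and TGF-β2. The share of all genes called was also 0% in each of them, of 10444, 10865, 10240 and 10794 tested. No member had an unadjusted edgeR p under 0.05 in these fits, beside 93, 106, 119 and 136 of all genes. Among the edgeR alternatives, no filter on low counts gave 0, 2 (Edn1 and Ednra), 1 (Ednra) and 0 members under 0.05. Of all genes, 1765, 2583, 2020 and 2274 were under 0.05 there. The fit of all 20 ES-astrocyte libraries gave 0, 1 (Edn1), 0 and 0 members, beside 495, 568, 893 and 582 of all genes. Ednrb was under 0.05 without the control of replicate A for 3 of the 4 stimuli, as given above. Without that library 434, 524, 265 and 634 of all genes were under 0.05. None of these members was called. DESeq2 called 0 members too, and 21, 37, 56 and 58 of all genes. At an unadjusted p under 0.05 DESeq2 had 0, 1 (Edn1), 0 and 1 (Ece1) of the members, beside 616, 710, 817 and 799 of all genes.

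In ES-motor neurons cultured on the stimulated astrocytes, the question was whether the neurons change in turn. The paper names a small risk of mediators left in the medium, which it considers likely negligible. Direct exposure of the neurons and an effect through the astrocytes cannot be told apart here. Only Ece1 passed the filter, and only for IL-1β and IL-6, with a log2 fold change of 0.83 ± 1.20 and an edgeR adjusted p of 1.00. It was above the control mean in 1 of 4 libraries, so the fitted sign rests on replicate C. Of all genes edgeR called 0% of 4479, 0% of 7348, 0% of 8327 and 0.0126% of 7947 in the same order of stimuli, with 143, 322, 98 and 221 genes at an unadjusted p under 0.05. DESeq2 called 1, 0, 1 and 19 genes, none of them a member. With no filter edgeR gave Ece2 an unadjusted p of 0.0268 (adjusted 0.320) for TGF-β2, where it was at 0 in 4 of 4 libraries. In that fit 2707 of all 19820 genes were under 0.05.

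Members with counts that the filter removed went into two-sided exact permutation tests of 4 against 4 libraries. Over the 21 such tests the p ran from 0.143 to 1. Values tied at 0 left 16 of the 21 unable to reach 0.05 whatever the split, 5 of them with p fixed at 1, and none of the 21 could have passed after adjustment, so these tests say nothing about stability. Ece1 in ES-motor neurons with C1Q and C5, at 0 in 3 of 4 libraries, gave an exact permutation p of 0.143. Ednrb there, with 2 of 4 libraries counted in both groups, gave an exact permutation p of 0.543.

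The control and the IL-1α and TNF-α libraries carried plate index 1 and the other 3 treatments plate index 2. For those 3 treatments plate index and stimulus cannot be told apart. What the plate index stands for was not given in the sources used here. Within plate index 2, comparisons added after seeing the data gave Ednrb a log2 fold change of 0.12 ± 0.53 for IL-1β and IL-6 against C1Q and C5. The change was -0.48 ± 0.57 for TGF-β2 against C1Q and C5, and -0.63 ± 0.41 for TGF-β2 against IL-1β and IL-6. For Ece1 the same 3 values were 0.05 ± 1.01, 0.60 ± 0.64 and 0.53 ± 0.92, and Edn1 gave -0.27 ± 2.02 in the last. With edgeR 0 members were called and 0% of 10346, 10798 and 10384 genes tested, with 173, 154 and 233 genes at an unadjusted p under 0.05, while DESeq2 called 0 members and 41, 22 and 62 genes. At an unadjusted p under 0.05, edgeR had 0 members in all 3. DESeq2 had Edn1 in both comparisons with C1Q and C5, where that group was at 0, as had edgeR with no filter and on all 20 libraries. Of all genes, DESeq2 had 875 and 687 under 0.05 in them, edgeR with no filter 3064 and 2624, and edgeR on all 20 libraries 682 and 359. Without TGF-β2 replicate C edgeR had Ednrb for TGF-β2 against IL-1β and IL-6 (p 0.0277, adjusted 1.00), beside 276 of all genes under 0.05. DESeq2 also called 1 gene of the pathway lists given below, the G protein regulator Rgs2, as lower after TGF-β2 than after IL-1β and IL-6 (log2 fold change -1.88 ± 0.47, adjusted p 0.0154), where edgeR called 0 list genes. Cell type is likewise bound to the second index primer of each library, which differed between ES-astrocytes and ES-motor neurons throughout.

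The other genes of the pathway were taken from lists of 61 genes without the 6 members, of which 44 could be tested between the cell types over all treatments. There 5 were higher and 10 lower in ES-motor neurons, beside 3.86% higher and 11% lower among all 13227 genes tested. The lists were written with this contrast known, and nothing is read from these shares. For the same reason the p of single list genes between the cell types, given below, are a description and no independent test. The median log2 fold change (ES-motor neurons against ES-astrocytes) was -0.21 over all genes.

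The list of ligand processing and degradation held a protease, placed there by its family, that was high in ES-motor neurons. Whether it cuts endothelins was not measured here. Of 12 genes 5 were tested, with 1 higher, 2 lower and a median log2 fold change of -0.45. Ecel1, a neuronal protease of the converting enzyme family, had 0 CPM as lowest, 52.5 CPM as median and 278 CPM as highest level in ES-motor neurons, where 18 of 20 libraries had it, while in ES-astrocytes 6 of 20 did, up to 7.88 CPM. Its log2 fold change was 6.57 ± 0.78 with an adjusted p of 6.24e-09. Pcsk5, a furin-like convertase, was counted in 12 ES-astrocyte libraries (highest 27.0 CPM) and 4 ES-motor neuron libraries (highest 4.53), a change of -4.56 ± 1.21 with an adjusted p of 0.00411. Pcsk2, another convertase (-3.10), was called too and is named after its value was seen. Pcsk5 was no longer called with DESeq2 (log2 fold change -2.57, adjusted p 0.125) or without replicate A (-2.90, adjusted p 0.222). Pcsk2 was not called without replicate B (-3.28) or C (-2.38). Neither was called without shallow libraries and the IL-1α and TNF-α treatment (-4.29 for Pcsk5 and -2.93 for Pcsk2).

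Of the 10 G protein genes through which the receptors signal, 9 were tested, with 0 higher, 1 lower and a median of 0.22. Gnai2, an inhibitory G protein, ran from 55.5 through a median of 79.4 to 411 CPM in the ES-astrocytes but from 0 through 27.7 to 130 CPM in ES-motor neurons, a change of -1.62 ± 0.34 with an adjusted p of 0.000351. Gnao1, the G protein abundant in neurons, had medians of 21.8 and 47.8 CPM and a change of 0.93 ± 0.36, which was not called (adjusted p 0.0618). Gnaq, which couples the receptors to phospholipase C, was counted in all 40 libraries, at 164 ± 68.5 CPM in the ES-astrocytes against 184 ± 53.1 CPM in the ES-motor neurons, and is named here after its values were seen.

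Among the effectors, 14 of 16 genes were tested, with 3 higher, 1 lower and a median of 0.40. Plcb1, a phospholipase C of this pathway, was counted in 7 ES-astrocyte libraries (highest 28.6 CPM) and 18 ES-motor neuron libraries (median 17.4, highest 53.5), a change of 3.98 ± 0.90 with an adjusted p of 0.000824. Itpr3, an inositol trisphosphate receptor, changed by 4.74 ± 1.01 (adjusted p 0.000351) at low levels, with 2 ES-astrocyte libraries up to 0.464 CPM and 7 ES-motor neuron libraries up to 13.4 CPM. Outside the rule for naming, the other 2 called were the receptor Itpr1 (-4.26) and the kinase Prkce (1.16), chosen after their values were seen. Without replicate C Prkce was no longer called (log2 fold change 0.67, adjusted p 0.199) and Itpr3 was removed by the filter on low counts. Itpr1 was not called without shallow libraries and the IL-1α and TNF-α treatment (-3.95, adjusted p 0.0747).

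Of 11 receptor regulators 10 were tested, with 0 higher, 3 lower and a median of -0.66. Rgs4, which shortens signals of G proteins, was counted in 19 ES-astrocyte libraries (median 28.9, highest 86.6 CPM) and 6 ES-motor neuron libraries (highest 40.7), a change of -4.13 ± 0.68 with an adjusted p of 6.37e-06. Rgs16, of the same family, was counted in 11 ES-astrocyte libraries (highest 23.4 CPM) and 1 ES-motor neuron library (6.01 CPM), a change of -3.99 ± 1.09 with an adjusted p of 0.00549. The third called was Rgs2 (-1.19), chosen after its value was seen. Rgs16 was no longer called with DESeq2 (log2 fold change -1.77, adjusted p 0.461) or without replicate B (-3.89, adjusted p 0.0763). Rgs2 was not called without replicate A (-0.99) or D (-1.07). Neither was called without shallow libraries and the IL-1α and TNF-α treatment (-3.52 for Rgs16 and -1.02 for Rgs2).

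Of 12 transcription factors known at Ednrb, Edn1 or Edn3, 6 were tested, with 1 higher, 3 lower and a median of -1.08. Gata2, known to act at the Edn1 promoter, was counted in 20 of 20 ES-astrocyte libraries (6.42 to 108 CPM, median 25.5) and in 1 ES-motor neuron library (6.71 CPM), a change of -7.29 ± 0.75 with an adjusted p of 7.79e-11. Jun, a part of the AP-1 factor that also acts there, was higher in ES-motor neurons, with 49.0 ± 27.6 CPM (SD, n = 20) against 7.12 ± 8.13 CPM, a change of 2.86 ± 0.48 (adjusted p 9.69e-06). Sox10, known at Ednrb in neural crest, was at 0 in all ES-astrocyte libraries and counted in 2 ES-motor neuron libraries. Sox2 (-2.26) and Fos (-3.16) were the other factors called, both chosen after their values were seen. Fos was not called without shallow libraries and the IL-1α and TNF-α treatment (-2.80, adjusted p 0.0604).

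In the 8 control libraries alone, 34 pathway genes were tested and 2 were called, Ecel1 as higher and Gata2 as lower in ES-motor neurons, beside 0.569% higher and 1.67% lower among 10199 genes. Neither count held when the motor neuron control of replicate B was left out (0 and 0 called), and 0 were lower without the astrocyte control of replicate C. With replicate as a block 0 pathway genes were called in the controls, and the genes called of all fell from 228 to 41. That count was 72 without the motor neuron control of replicate B and 401 without the astrocyte control of replicate A. Over all treatments, the count fell from 15 to 9 (5 higher, 4 lower) without the libraries under 20% of the median total and the IL-1α and TNF-α treatment. Of all genes, 1639 of 15588 were then called (604 higher, 1035 lower), against 1972 of 13227 (511 higher, 1461 lower). Without replicate C 3 pathway genes in place of 5 were higher, and 438 in place of 511 of all genes. In the 8 stimulus comparisons edgeR and DESeq2 called 0 genes of these lists. At an unadjusted p under 0.05 edgeR had 0, 0, 1 and 3 of them in ES-astrocytes and 0, 0, 0 and 1 in ES-motor neurons, in the order of stimuli given above.

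Genes most like Ednrb over the 20 ES-astrocyte libraries were sought among 8093 genes with a mean of at least 10 CPM, as a description over libraries that share treatment groups. The highest Pearson correlation of log2(CPM + 1) was that of Tex30 (r = 0.962, Spearman's rho 0.907), followed by 1810026B05Rik (0.955, 0.869), Ptar1 (0.955, 0.926), Gm29247 (0.954, 0.881) and Gtf3c3 (0.952, 0.883). Without the control libraries of replicates A and B, the 2 farthest from the Ednrb median, r was 0.939, 0.929, 0.921, 0.929 and 0.913 in the same order. The genes were picked for a high r over libraries that include these 18, so this is no test of the likeness.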

How the data were processed

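The deposited table holds counts, as raw reads per Ensembl gene, which the authors obtained by mapping with STAR and analysed with DESeq2. In the sources used here the version of STAR, the counting tool, the strand setting, the build and the annotation were not given. Of 55487 genes 55141 matched GENCODE M21 (GRCm38) and 346 did not. Positions and exon lengths are from that release, so the build of the counts themselves is not known. The members and lists were chosen with earlier results of these data known.

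Each comparison was fitted with edgeR 4.0.16 in R 4.3.3 (filterByExpr, TMM, robust quasi-likelihood test), with Benjamini-Hochberg adjustment over all genes tested. The standard errors given for edgeR were derived as the absolute log2 fold change divided by the square root of the test's F statistic. Between the cell types over all treatments, treatment was a term. DESeq2 1.42.0 (alpha 0.1) was the other tool. Members under the filter were compared by exact permutation with scipy 1.17.1. Named were all members, the 2 genes of smallest p of each pathway list between the cell types, any list gene called for a stimulus, and the 5 genes most like Ednrb. For the marker lists in the text the summed CPM, the genes counted and the most abundant gene are given, and the results of 2 other marker lists are not reported here. Pdgfra and Cspg4 stand on more than 1 list. The code was tested on simulated data. Alternatives tried were DESeq2, RLE factors, no filter, no fold threshold, a replicate block, 1 fit of all 20 libraries of a cell type, CPM without TMM, leaving out shallow libraries and leaving out each replicate.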

Additional observations from a re-analysis of the deposited data

Results flagged for a closer look

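In 14 of the 60 combinations of a member and a group, 1 library lay far from the other 3, by the gap to its nearest neighbour as a share of the group's range. Only 31 combinations had any spread, and chance gives about 1 in 20 groups where values are not tied. In 11 of the 14 the other 3 libraries were at 0, where the rule flags any counted library. Ednrb stood out in ES-motor neurons, with 3.85 CPM in the control of replicate C and 1.72 CPM in TGF-β2 replicate D. Ednra stood out in ES-astrocytes, with 14.3 CPM in the control of replicate A, 0.502 CPM in IL-1α and TNF-α replicate D and 0.0973 CPM in TGF-β2 replicate B. Edn1 stood out in ES-astrocytes, with 20.6 CPM in IL-1α and TNF-α replicate D and 22.9 CPM in TGF-β2 replicate D. Ece1 stood out in ES-motor neurons, with 1.41 CPM in C1Q and C5 replicate D and 18.4 CPM in TGF-β2 replicate B. Ece2 stood out in ES-astrocytes, with 0.365 CPM in the control of replicate C and 0.0855 CPM in C1Q and C5 replicate B. In ES-motor neurons Ece2 did so with 2.16 CPM in IL-1α and TNF-α replicate B, 0.706 CPM in C1Q and C5 replicate D and 1.4 CPM in IL-1β and IL-6 replicate A.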

How the results depend on the processing

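No member was called for any stimulus under any alternative run. Among the fold changes of named genes 194 kept their direction and side of the threshold under the alternatives other than leaving out a replicate, 8 kept the direction but were no longer called and 3 reversed. With a replicate left out these were 187, 7 and 11. The alternative with no fold threshold reused the main fit, so its fold changes were the same by construction. A gene not called in either fit counted as kept where its direction held. Some group means in ES-astrocytes rested on 1 library. Without replicate D mean Edn1 fell from 5.49 to 0.460 CPM after IL-1α and TNF-α and from 6.71 to 1.30 CPM after TGF-β2. Without replicate C it fell from 8.15 to 2.42 CPM after IL-1β and IL-6, and without replicate B from 14.5 to 9.04 CPM in the control. Without replicate A control Ednra fell from 3.56 CPM to 0. Without replicate B mean Ece1 fell from 17.4 to 10.4 CPM after IL-1α and TNF-α and from 25.0 to 15.7 CPM after IL-1β and IL-6. The replicate letters were not taken as pairs in the main fits, and the correlations of matched letters ran from -0.229 to 0.427. They were all above 0 in ES-motor neurons after TGF-β2 (0.0494 to 0.183) and for IL-1β and IL-6 against C1Q and C5 (0.0316 to 0.225). No such correlation was taken between the cell types over all treatments, where the replicate block called 15 pathway genes (5 higher, 10 lower). The replicate block turned Ece1 after IL-1α and TNF-α to -0.52, and on plate index 2 turned Ece1 for IL-1β and IL-6 against C1Q and C5 to -0.48 and Edn1 for TGF-β2 against IL-1β and IL-6 to 1.07. In the controls it left 0 pathway genes called (0 higher, 0 lower), beside 41 of all 10199 genes. DESeq2 gave 7 of 50 there (4 higher, 3 lower), beside 764 of 19506 genes (277 higher, 487 lower). Leaving out each replicate in turn gave 0 to 2 there (0 to 1 in either direction), and 12 to 15 over all treatments (3 to 5 higher, 8 to 10 lower). Of all genes, leaving out a replicate gave 72 to 401 in the controls and 1447 to 1771 over all treatments. It gave Ece1 after IL-1α and TNF-α -0.39 to 0.78 and, on plate index 2, for IL-1β and IL-6 against C1Q and C5, Ece1 -0.62 to 0.48 and Ednrb -0.16 to 0.67. It gave Ednrb for TGF-β2 against C1Q and C5 -0.88 to 0.055, and Edn1 for TGF-β2 against IL-1β and IL-6 -2.57 to 1.42. Without shallow libraries and the IL-1α and TNF-α treatment, an alternative chosen after seeing the data like the plate comparisons and the Ednrb level without the control of replicate A, the pathway count over all treatments was 9 (4 lower). Of all 15588 genes tested, 1639 were called in that fit (1035 lower). There Pcsk5 (adjusted p 0.0734) and Rgs16 (0.119) were no longer called, nor were they with DESeq2 (0.125 and 0.461). Without those libraries Rgs2, Pcsk2, Itpr1 and Fos were not called either (lowest adjusted p 0.0604). Fewer libraries entered these fits, and the cause was not tested further. Leaving out shallow libraries alone was not run where a group would keep fewer than 2. The median log2 fold change between the cell types over all treatments was -0.21 with TMM, -0.26 with RLE and 0.81 over the genes DESeq2 fitted, against -0.24 for edgeR with no filter on low counts, and the cause was not tested. Depth limits the ES-motor neuron levels, by group median most of all after IL-1α and TNF-α. The single shallowest library was C1Q and C5 replicate A with 6557 counts.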
